A study of Mus musculus with 3 samples.

Results

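Peaks at the ends of longer protein-coding genes were described in a cross-linking and immunoprecipitation (CLIP) experiment on Tet2 in mouse bone marrow derived mast cells. Tet2 is an enzyme that oxidises 5-methylcytosine, and the question given by the series' design text was which RNAs it binds. A peak was counted as an end peak when its midpoint lay in exactly 1 RefSeq gene span of the build mm10, that span was protein-coding and at least 10000 nt long, and the midpoint fell within the first or last 5% of it. The rule chose 2039 of 8196 peaks: 713 of 3019 in replicate 1, 717 of 2800 in replicate 2 and 609 of 2377 in replicate 3. Peaks that met the other conditions but lay further inside the span of such a gene, called deep peaks here, numbered 3360.

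There was 1 group of 3 replicate libraries, all from C57BL/6 mast cells grown for 4 to 6 weeks from femoral marrow with interleukin-3 (10 ng/ml) and stem cell factor (5 ng/ml). The labels give no genotype beyond the strain, and state that the cells carried FcεRI and c-Kit at a purity above 97.5%. Cells were exposed to ultraviolet light at 400 and then 200 mJ per square centimetre, and endogenous Tet2 was pulled down with an antibody. Neither input RNA nor a pull-down with a control antibody is part of the data used, so the amount of an RNA in the cells and its recovery with Tet2 cannot be told apart at any peak.

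In CLIP, ultraviolet light joins a protein to RNA that it touches, and the RNA left after nuclease treatment is sequenced, so that a peak marks a stretch of RNA recovered with the protein. A protein-coding gene is transcribed from its 5′ start, where the first exon and the beginning of the first intron lie and where many promoters are rich in CpG, to its 3′ end, where the last exon commonly holds most of the 3′ untranslated region. Tet proteins are best known for acting on methylated CpG in DNA, and Tet2 is also known to be recruited to RNA. Peaks at the 5′ and at the 3′ end of a gene therefore lie in parts of a transcript with different composition and different fates.

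The only end peaks whose bases could be read lay near annotated starts, in promoter windows that RefSeq gives for GRCm38.p6 (mm10 coordinates). Each window runs from 250 nt before to 50 nt after a start. Of the 2039 end peaks, 211 touched a window of their own gene, all of them at the 5′ end, and they fell in 143 loci of 142 genes. A locus is a group of peaks from the libraries joined by overlaps, so that 2 of its peaks need not overlap each other. Below are runs of 30 bases at 8 of the 25 such loci with a peak in all 3 libraries, those with the greatest summed height, shown because these are recurrent loci at gene starts where the bases can be seen. They are written 5′ to 3′ on the strand of the gene, and capitals mark bases beneath the peaks of at least 2 libraries. Lower case bases are context, part of it outside the locus: the locus of Cacnb4 is the 10 capitals, and that of Ddx19a overlaps only the last bases of the run. Pald1 had 1 end peak in each library, and its capitals form 2 separate stretches, so no base of its run lay beneath all 3 libraries.
Kctd20: CGCGGTGGCCGGAGCTTGGAGGTGGCTTCG
Msl2: GGGaatccgacgcctGCGCCGTAGTCCCCA
Cacnb4: acgttttgttAATGGATGTGgtgggtgctc
Anpep: CCAGAGCAGGCGGGCGGAGGCGAGGCAGGA
Pald1: GGGGATCCGGACtcgaggcggggttctGGG
Zfp687: TGGAACCGGGAGGAGGCCGTAGGGTCTCAG
Ddx19a: ggcacttggcgcgggcttgcgttcggcGCT
Ndufa8: ggccagccaaaggggactTGAAGGAGACGG

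The run of Kctd20 lies at chr17:28952504-28952533 on the plus strand, and its peaks stood at 13, 17 and 17 height units in replicates 1, 2 and 3. A height unit is the fixed step of which the deposited heights of a library are whole multiples. The run of Msl2, a ubiquitin ligase of a histone acetyltransferase complex, lies at chr9:101074763-101074792 on the plus strand. The tallest peaks of its locus, chr9:101074664-101074822, stood at 4, 18 and 12 units and need not be those over the run. The run of Cacnb4, a calcium channel subunit, lies at chr2:52676011-52676040 on the minus strand (12, 9 and 9 units), and that of Anpep, the membrane aminopeptidase N, at chr7:79848172-79848201 on the minus strand (7, 9 and 8 units). Pald1 (chr10:61383490-61383519, 4, 8 and 9 units) and Zfp687, a zinc finger gene (chr3:95015341-95015370, 8, 8 and 5 units), are also on the minus strand. So are Ddx19a, a DEAD-box RNA helicase gene (chr8:110997774-110997803, 8, 4 and 7 units), and Ndufa8, a subunit gene of respiratory complex I (chr2:36049289-36049318, 5, 9 and 5 units). A run can lie before the start of its window and still be inside the gene, since the span covers all annotated transcripts. The peak lists do not give the strand of a peak.

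The bases beneath 5′ end peaks in these windows were 74.4% ± 1.24 G or C (SD, n = 3 libraries), with 40.9% ± 0.991 G and 12.1 ± 0.564 CpG per 100 bases. The whole windows of the same peaks were 68.1% ± 0.423 G or C, with 9.93 ± 0.0906 CpG per 100 bases. At the same offsets from the start, the windows of all longer coding genes averaged 60.1% G or C and 31.2% G. The peaks thus lay in the more GC-rich part of windows that were themselves above the average of longer coding genes, with no test made of these differences. Base composition is also known to affect library amplification and read mapping, and its part in where peaks were called was not tested. Among short motifs searched on both strands and chosen after the data were seen, GGGCGG, the core of a GC box, was in 82.7% of 150 windows touched by an end peak, in 70.6% of 991 windows of genes with a 5′ end peak and in 52.8% of all 14244 windows of longer coding genes. It was also in 62.4% of 295 windows of genes with a 3′ but no 5′ end peak. Windows of these genes were 62.8% G or C, those of genes with a 5′ end peak 63.6% and all windows 58.5%. In windows touched by an end peak, windows of genes with a 5′ end peak and all windows, the shares for TATAAA, the TATA box, were 6%, 5.25% and 8.80%. For CACGTG, an E-box, they were 11.3%, 10.6% and 8.56%, and for GATAAG, bound by Gata factors, 4.67%, 3.83% and 6.09%. Windows of genes with a 3′ but no 5′ end peak held TATAAA in 7.80%, CACGTG in 7.46% and GATAAG in 6.44%. The last motif shares the letters ATAA with TATAAA, and a match says only that the letters are there.

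End peaks made up 24.9% ± 1.15 (SD, n = 3) of the peaks of a library: 23.6% in replicate 1 (exact 95% binomial interval 22.1 to 25.2), 25.6% in replicate 2 (24.0 to 27.3) and 25.6% in replicate 3 (23.9 to 27.4). They held 20.2% ± 0.921 of the summed height. The summed heights were 19213, 18270 and 15431 units, sequencing depth is unknown, and the intervals cover counting error only. The design text calls the replicates biological without naming animals or cultures, and the SD covers the spread between these 3 libraries, which may be partly technical. Of all 13962 longer coding genes, 1168 (8.37%) carried an end peak in at least 1 library. Of 9 mast cell markers long enough for the rule, 6 did. The counts were 0 of 8 macrophage, 0 of 4 neutrophil, 0 of 7 lymphocyte and 0 of 5 erythroid or megakaryocytic markers, and lists this short can hold none at the share of all genes. Of 3 basophil markers 2 carried one, Gata2, which is also a mast cell marker, and Cd200r3 (0, 0 and 4 units). Of 8 fibroblast or stromal markers 1 did, the collagen gene Col1a1 (7, 4 and 6 units). Several defining mast cell genes, Fcer1a among them, are too short for the rule.

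End peaks lay mostly at the 5′ end. Strand was known for 11080 of 13962 longer coding genes (79.4%). Replicate 1 had 462 end peaks at the 5′ end and 125 at the 3′ end, replicate 2 had 452 and 131, and replicate 3 had 393 and 91. A further 126, 134 and 125 end peaks lay in genes without strand in the tables used. In every library the 5′ end thus held more than 3 times as many peaks as the 3′ end, a ratio of 3.82 ± 0.448 (SD, n = 3). The 5′ share was 78.7% (exact 95% binomial interval 75.2 to 82.0), 77.5% (73.9 to 80.9) and 81.2% (77.4 to 84.6). The 3′ share minus the 5′ share came to -58.3 percentage points ± 3.75. An exact sign-flip permutation test over the 3 libraries, two-sided, gave p = 0.25, the smallest it can give, so this test cannot pass 0.05 here or at any comparison below.

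Along the span of genes of known strand, the 2 ends differed in shape as well as size. The first 5% of the span held 29.5% ± 1.14 (SD, n = 3) of the peaks of such genes and the next 5% held 4.86% ± 0.594. The share was lowest between 30% and 35% of the span, at 2.12% ± 0.219, and reached 7.78% ± 0.663 in the last 5%. The 5′ end thus stood out as a single bin, while the share grew gradually from the middle of the gene to the 3′ end. Whether a peak lay in an exon, an intron or a UTR was not analysed here, because the tables used give spans without exons.

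**Figure D1:**
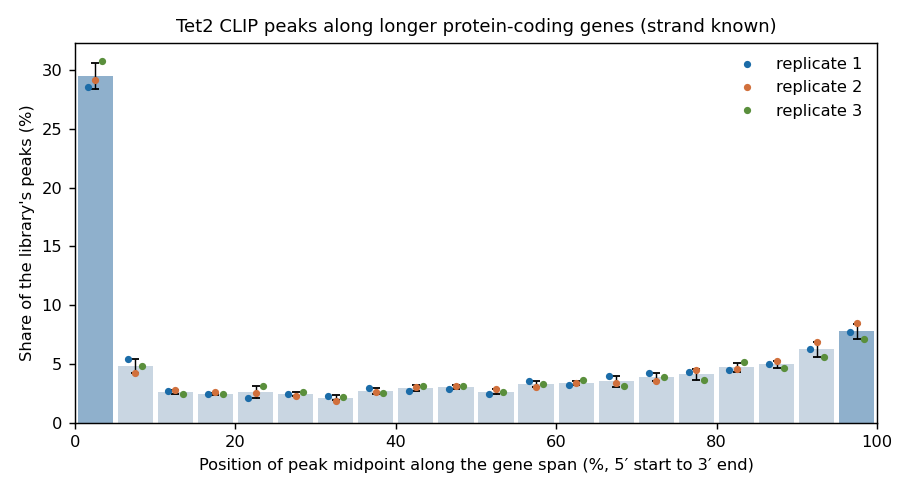
Share of the peaks of a library (%, of peaks in 1 longer coding gene of known strand) in 20 equal bins of the gene span from the 5′ start to the 3′ end. Bars are means of 3 libraries, points the libraries and error bars the SD; the darker outer bins hold the end peaks, 29.5% in the first and 7.78% in the last.

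The distance to the end of the gene differed between the ends. The median distance of a 5′ end peak from the start of the span was 342 nt ± 27.8 (SD, n = 3), and that of a 3′ end peak from the end of the span was 1231 nt ± 163. Of 5′ end peaks, 26.5% lay less than 200 nt from the start, 40.4% from 200 to less than 500 nt and 19.2% from 500 to less than 1000 nt. Of 3′ end peaks, 55.2% ± 2.20 lay 1000 nt or more from the end, where 13.9% ± 1.29 of 5′ end peaks did. The 5′ peaks were thus gathered near the start, whereas the 3′ peaks were spread over the zone the rule allows, which widens with the length of the gene.

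**Figure D2:**
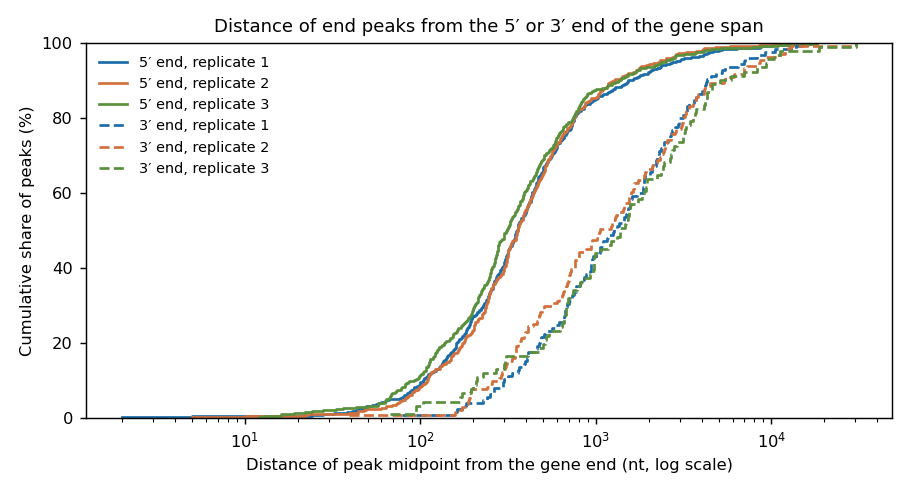
Cumulative share (%) of end peaks against the distance of their midpoint from the 5′ end (solid lines) or the 3′ end (dashed lines) of the gene span, in nt on a log scale, 1 line for each of the 3 libraries. The lines of the libraries run together, with median distances near 342 nt at the 5′ end and 1231 nt at the 3′ end.

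Annotated starts gave another view of the same peaks. A peak was called near a start when its midpoint lay from 250 nt before to less than 1000 nt after any annotated start of its gene in the promoter table. This held for 1166 of 1307 5′ end peaks (89.2% ± 0.358, SD, n = 3). It held for 0 of 347 3′ end peaks and for 338 of 2786 deep peaks of genes of known strand (12.2% ± 0.464). Some deep peaks therefore also lay near starts, either those of inner, shorter transcripts or the first start of genes whose 5% zone is under 1000 nt. Position was used by the rule, so these shares describe the end peaks and carry no test.

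The share at the 5′ end varied with gene length. Over all libraries together, it was 85.4% in genes of 10000 to less than 20000 nt, 83.8% up to 50000 nt, 73.0% up to 100000 nt and 73.4% in longer ones. Between the shortest classes the libraries disagreed on the direction (82.5%, 83.0% and 92.4%, then 85.9%, 81.7% and 83.9%). In the class up to 100000 nt the share was lower in each (72.6%, 71.3% and 75.6%). The zone of the rule widens with the span, which bounds the distances below. The median distance from the start changed less over these classes (266, 306, 383 and 627 nt) than the median distance of 3′ end peaks from the end (442, 702, 1910 and 3673 nt). An end peak was present in 5.58% of genes of the shortest class, 7.95% and 11.5% of the next, and 10.5% of the longest. By chromosome, the share of longer coding genes with an end peak ran from 4.06% on X to 11.9% on chromosome 11, apart from Y, where 0 of 72 genes had one.

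End peaks were about as tall as deep peaks. The median height was 4 units for both in each library. The lowest peaks of the lists stood at 2, 2 and 3 units, and the lowest end peaks at 3, 2 and 3. These medians, and peaks of 3 or 4 units named below, are thus near the floor of the lists. The mean log2 height of end peaks was 2.16, 2.18 and 2.10, and that of deep peaks 2.13, 2.14 and 2.09. The difference, end minus deep, was 0.03 ± 0.02 on the log2 scale (SD, n = 3; exact sign-flip p = 0.25), and it changed sign when only genes of 50000 nt or more (-0.01) or only peaks of 5 units or more (-0.05) were used. Peaks of 5 units or more made up 36.3% ± 2.62 of end peaks and 33.3% ± 2.08 of deep peaks, with the end peaks higher in 3 of 3 libraries (difference 3.08 points ± 0.585). At 10 units or more the shares were 8.12% ± 1.23 and 8.01% ± 0.652, and the libraries disagreed on the direction (1.10, 0.34 and -1.11 points, exact sign-flip p = 1.0). At 20 units or more deep peaks had the greater share, 2.31% ± 0.337 against 1.46% ± 0.304. The tallest deep peaks reached 139, 133 and 133 units, and the tallest end peaks 87, 88 and 84.

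The 2 ends differed at 5 units or more and at 20 units or more, in opposite directions. At 5 units or more the share was 37.3% ± 2.57 of 5′ end peaks and 30.4% ± 1.72 of 3′ end peaks, lower at the 3′ end in 3 of 3 libraries (-6.91 points ± 1.51, exact sign-flip p = 0.25). At 10 units or more the shares were 8.16% ± 1.81 and 6.35% ± 0.668. The libraries disagreed on the direction there (3′ minus 5′ of -3.27, -2.64 and 0.487 points, exact sign-flip p = 0.5). At 20 units or more the share was 1.16% ± 0.461 at the 5′ end and 2.82% ± 0.541 at the 3′ end, higher at the 3′ end in 3 of 3 libraries. That upper share rests on few peaks, 15 at the 5′ end and 10 at the 3′ end in all libraries together. The same sites of Snrnp70 and Basp1 entered it in every library, and in replicate 3 they were the only 3′ end peaks of this height. The 3′ end peaks of this height lay in 5 genes: Snrnp70, Basp1, Lars2, Por and Pdcd6ip, the last of which was named after its values were seen and had 1 peak of 37 units in replicate 1 only.

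Peak width went with height. End peaks had a median width of 55 nt ± 1 and deep peaks 54 nt in each library. Over all libraries, end peaks below 5 units had a median width of 62.0 nt, those of 5 to 9 units 49.0 nt, those of 10 to 19 units 31.0 nt, and the 30 peaks of 20 units or more 15.0 nt. Of the 10 peaks of 20 units or more at the 3′ end, 8 were at most 10 nt wide, against 5 of 15 at the 5′ end. Across all heights 3′ end peaks were the wider ones, 67.3 nt ± 2.52 against 52.8 nt ± 1.76 (difference 14.5 nt ± 3.50, exact sign-flip p = 0.25). With only peaks of 5 units or more this difference turned to -0.67 nt. By height over all libraries, median widths at the 3′ and 5′ end were 74 and 59 nt below 5 units, 56 and 48 nt at 5 to 9 units, and 19 and 32 nt at 10 to 19 units.

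The tallest end peaks were in Snrnp70, the gene of the U1-70K protein of the U1 small nuclear ribonucleoprotein, which recognises 5′ splice sites. At its 3′ end, a peak of 87, 88 and 84 units lay at chr7:45376859-45376868, 409 nt from the end of the span. It was 2, 10 and 9 nt wide. A second 3′ locus of 7, 5 and 4 units lay within 684 nt of the end and was much wider (52, 93 and 96 nt). At the 5′ end of the same gene, peaks of 11, 10 and 9 units lay at chr7:45395588-45395677, 109 to 118 nt from the start. All 3 of these loci had a peak in every library, and Snrnp70 was the only gene with such a recurrent locus at both ends. It also held 7 deep peaks.

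Basp1, which encodes a protein of the inner plasma membrane, had the next tallest peaks, at 72, 72 and 56 units, 1516, 1536 and 1524 nt from its 3′ end. The peaks of replicates 1 and 3 overlapped, at chr15:25364786-25364801 and chr15:25364798-25364804, while that of replicate 2 was a single base at chr15:25364813-25364813. Counted by overlap, the site was therefore present in 2 libraries, though all 3 had a tall peak there. Basp1 also had a recurrent 5′ locus of 6, 10 and 7 units, 204 to 207 nt from the start. Lars2, the mitochondrial leucyl-tRNA synthetase, had peaks of 22, 25 and 17 units at its 3′ end, each 1 nt wide, at 647, 650 and 682 nt from the end with no overlap between libraries. Such narrow tall peaks count as different loci under the overlap rule, and whether their reads also match other places in the genome was not tested.

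At the 5′ end the tallest peaks were those of Kcnk13, a potassium channel gene, and Bcl7c, a subunit of the SWI/SNF chromatin remodelling complex. Kcnk13 had peaks of 23, 28 and 26 units at 2637 to 2649 nt from its start, each at most 8 nt wide. Bcl7c had 3 recurrent loci. Its peaks stood at 21, 29 and 25 units at chr7:127707514-127707541, at 19, 27 and 24 units at chr7:127707880-127707904, and at 5, 4 and 3 units 323 nt from the start. The tallest of these loci was the farthest from the start, at 1233 nt, and the order of the 3 loci by height was the same in every library.

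Tall 5′ peaks of greater width were found in Nid1, Sspn and Stt3b. Nid1, which encodes nidogen, a basement membrane protein, carried 19, 22 and 20 units at chr13:13437813-13437876, 243 nt from its start. Sspn, the membrane protein sarcospan, carried 16, 15 and 18 units at chr6:145932910-145933009. Stt3b, a catalytic subunit of the oligosaccharyltransferase, carried 16, 21 and 11 units at chr9:115310042-115310110. Man2a1, Golgi mannosidase II, carried 20, 14 and 15 units, with the peak of replicate 2 just beside those of the other libraries. Among the other recurrent 5′ loci, Nup93, a nuclear pore protein, had 18, 16 and 8 units at 336 nt from the start. Its peaks of replicates 1 and 3 each overlapped that of replicate 2 but not each other. Chmp4b, an ESCRT-III protein, had 10, 20 and 11 units at 133 nt. Gabbr1, a GABA-B receptor subunit, had 2 recurrent loci, the taller at 10, 17 and 14 units. In Asph, an aspartate hydroxylase (24, 23 and 15 units), peaks of all libraries overlapped but the end could not be named, since its strand is not in the tables used.

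**Figure D3:**
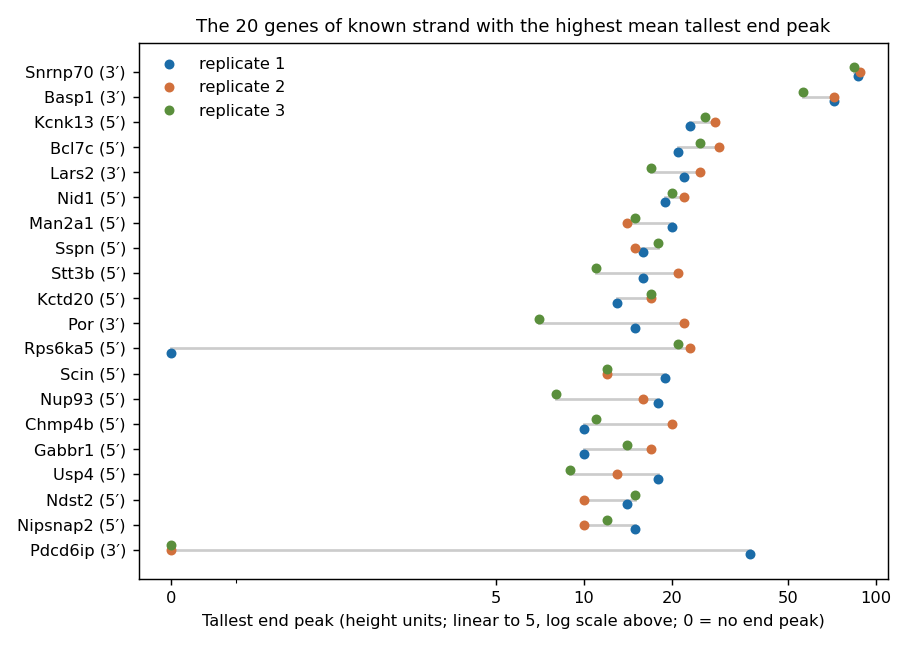
Height of the tallest end peak (height units; linear to 5, log scale above) in each of the 3 libraries for the 20 genes of known strand with the highest mean, with the end of the gene in brackets. Snrnp70 (87, 88 and 84 units) and Basp1 (72, 72 and 56 units), both at the 3′ end, stand apart from the other genes, and a point at 0 means that a library had no end peak in that gene.

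The recurrent 3′ loci were fewer. In Por, cytochrome P450 oxidoreductase, 9 end peaks lay at the 3′ end, and 2 loci were in every library: 1 of 15, 22 and 6 units at 940 nt from the end, and 1 of 11, 13 and 7 units at 1035 nt. Replicate 3 was the lowest at both. Plcb3, a phospholipase C, had 9, 8 and 14 units at chr19:6954163-6954222, and Zzef1, a zinc finger gene, 7, 14 and 10 units at chr11:72926412-72926489. Satb1, a chromatin organiser, had 10, 8 and 5 units at 4105 nt from the end. Slc7a8, an amino acid transporter, had 7, 8 and 7 units, with peaks that shared their lower border in all libraries. Larp1, an RNA-binding protein that acts on mRNAs of the translation machinery, had 9, 6 and 6 units at 3377 nt from the end. Its peaks of replicates 1 and 3 each overlapped that of replicate 2 but not each other. Hdc, the histidine decarboxylase that makes histamine, had 9, 4 and 7 units at chr2:126594286-126594444. There the peaks of replicates 1 and 2 were joined only through that of replicate 3.

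The genes with the most end peaks were not those with the tallest. Myh9, the heavy chain of non-muscle myosin IIA, had 11 end peaks (4, 4 and 3 in the libraries), all at its 3′ end and none above 6 units, of which 1 locus, chr15:77763792-77763851, was found with the same borders in every library (5, 3 and 3 units). Snrnp70 had 10, Por and Bcl7c 9 each, and Plekha5 8. In Plekha5 all 8 lay at the 5′ end, and the recurrent locus 2864 nt from the start had the same 11 bases in all 3 libraries (5, 6 and 4 units). Most genes were at the other extreme, with 686 of 1168 having 1 end peak over all libraries and 34 having at least 5.

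In each library, a greater share of end peaks than of deep peaks recurred in the other libraries. On average over the other libraries, 34.8%, 36.5% and 40.4% of end peaks of replicates 1, 2 and 3 were overlapped by at least 1 nt, against 27.5%, 30.9% and 34.8% of deep peaks. The difference was 6.15 points ± 0.980 (SD, n = 3), above 0 in 3 of 3 libraries (exact sign-flip p = 0.25). The excess came with the 5′ end: 39.6% ± 2.34 of 5′ end peaks and 25.6% ± 4.03 of 3′ end peaks were overlapped, a difference, 3′ minus 5′, of -14.1 points ± 2.11 (exact sign-flip p = 0.25). Against deep peaks, 5′ end peaks were higher by 8.55 points ± 1.33, and 3′ end peaks gave -5.53 points ± 1.85. The share was not particular to the 5′ end. Over all libraries, in genes of known strand, it was 39.5% in the first 5% of the span and 38.4% in the next 5%. Deeper bins ran from 20.8% (at 10% to 15% of the span) to 45.1% (at 20% to 25%). The differences were also taken with all peaks below 5 units left out, also as overlapping peaks of the other libraries. They were then 0.86 points ± 2.51 between end and deep peaks (exact sign-flip p = 0.75). Between the ends the value was -3.56 points ± 5.11 (exact sign-flip p = 0.5), and both lay within the spread between libraries. Where the overlapping peak could have any height, end peaks of 5 to 9 units exceeded deep peaks by 7.06 points ± 0.502 (6.53, 7.12 and 7.53). At 10 units or more that difference was -4.15 points ± 6.51 (1.50, -2.67 and -11.3).

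Tall peaks recurred more at every position. At 3 or 4 units, 28.2% ± 1.77 of 5′ end peaks, 16.0% ± 2.80 of 3′ end peaks and 19.8% ± 2.45 of deep peaks were overlapped. At 5 to 9 units the shares were 54.3% ± 7.74, 43.6% ± 12.8 and 46.6% ± 8.85. At 10 units or more they were 75.7% ± 2.14, 64.0% ± 2.79 and 77.5% ± 3.94. The 3′ end had the lowest mean share in each class, while 5′ end peaks and deep peaks of 10 units or more did not differ in a common direction (2.10, -2.49 and -4.92 points, exact sign-flip p = 0.5).

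**Figure D4:**
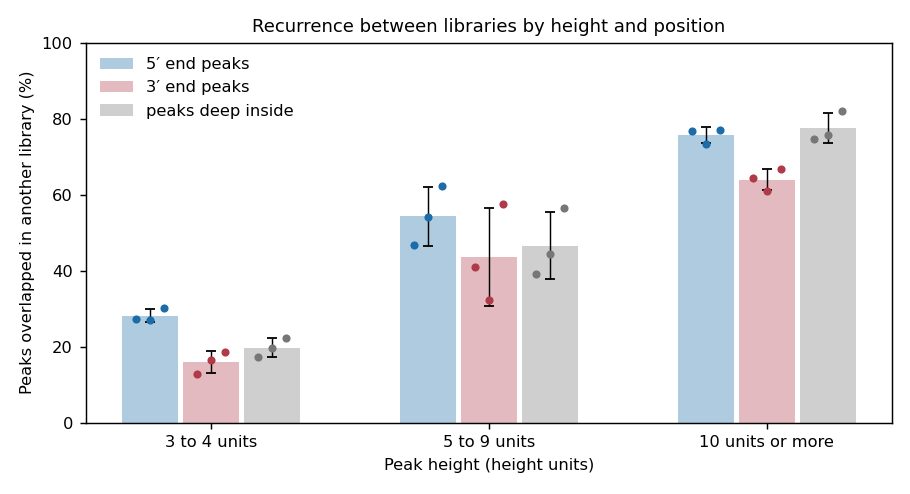
Share (%) of peaks overlapped by at least 1 nt in another library, averaged over the other libraries, by peak height in height units and by position: 5′ end, 3′ end and deep inside longer coding genes. Bars are means of 3 libraries, points the libraries and error bars the SD; for 5′ end peaks the share goes from 28.2% at the lowest heights to 75.7% at 10 units or more.

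End peaks formed 1445 loci, of which 175 (12.1%) were found in all 3 libraries, 248 (17.2%) in 2 and 1022 (70.7%) in 1 alone. At the 5′ end 119 of 901 loci were in all 3 (13.2%), and at the 3′ end 19 of 277 (6.86%). Deep peaks formed 2554 loci with 247 in all 3 (9.67%). For loci found in all 3 libraries, the height of a locus was taken as the mean over libraries of its tallest peak, with a median of 6 units. Loci found in 1 library had a median tallest peak of 3 units. Across these 175 loci, log2 heights gave a Pearson r of 0.694 between replicates 1 and 2, 0.585 between 1 and 3 and 0.698 between 2 and 3. Spearman rho was 0.616, 0.477 and 0.593. The loci were chosen for having a peak in each library, and their values are a description. The heights of a locus were within 2-fold of each other for 90.9%, 83.4% and 90.3% of loci, and 16 loci reached 10 units in every library, 12 of them at the 5′ end and 1 at the 3′ end, that of Snrnp70.

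In gene terms, 1168 of 13962 longer coding genes carried an end peak in at least 1 library (8.37%), and 209 in every library (1.50%). Of 11080 genes of known strand, 776 carried one at the 5′ end (7.00%) and 215 at the 3′ end (1.94%). A locus shared by all 3 libraries was found in 163 genes (1.17%). End peaks were at the 5′ end alone in 738 genes, at the 3′ end alone in 177 and at both ends in 38. Most genes with an end peak, 794, had no deep peak, and 374 had both. These percentages are over all annotated longer coding genes, including those that mast cells may not transcribe, and are the background against which the gene lists are read.

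Among 16 gene lists, the share of longer coding genes with an end peak ran from 11.1% to 40.9%, above 8.37% in each. The lists were drawn up with earlier results of these data known, so the shares are descriptive and were not tested. The mast cell list had the greatest share, 9 of 22 genes, followed by translation factors (10 of 27), chromatin modifiers (17 of 49) and the actin and tubulin cytoskeleton (10 of 30). The RNA editing and methylation list (2 of 18) and the DNA methylation list (2 of 14) had the smallest. By end, the mast cell list had 3 genes with an end peak at the 5′ end and 7 at the 3′ end, chaperones had 5 and 0, and MAP kinases and phosphatases 7 and 0, beside 776 and 215 among all longer coding genes of known strand. These splits were not tested.

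**Figure D5:**
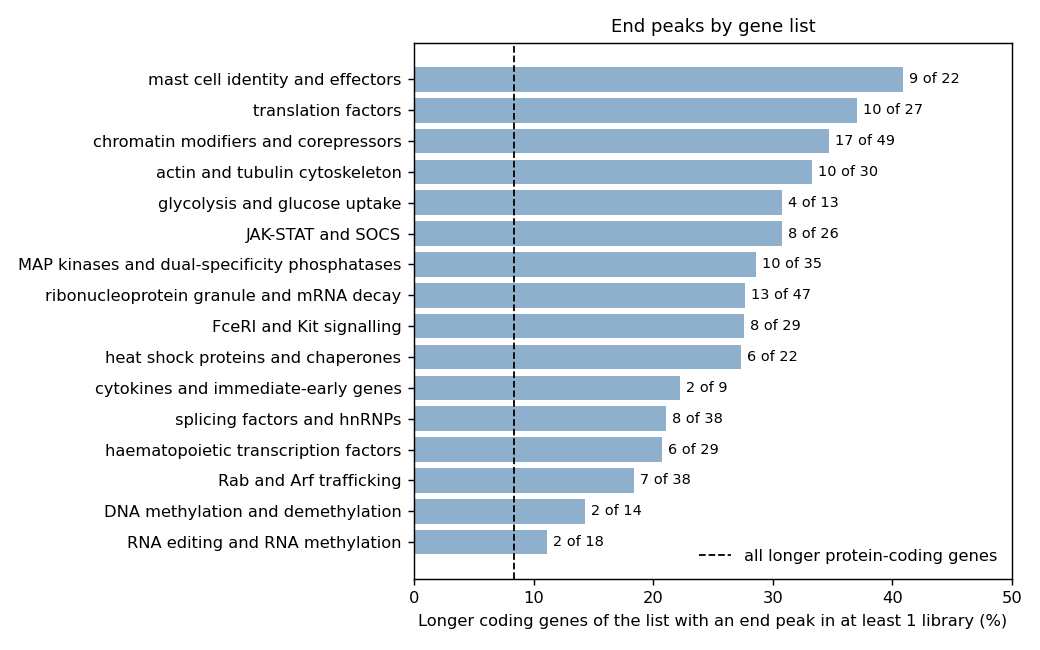
Share (%) of the longer coding genes of each of 16 gene lists that carried an end peak in at least 1 library, with counts beside the bars. The dashed line is the share of all longer coding genes, 8.37%, and the mast cell list has the greatest share, 9 of 22 genes.

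Mast cell genes carried low to moderate end peaks. Ndst2, which sulfates the heparin of mast cell granules, had the tallest, 14, 10 and 15 units at chr14:20734431-20734500, 111 nt from its start. Hdc followed with its 3′ locus, given above. Slc18a2, the vesicular transporter that loads histamine into granules, had 5 peaks at the 5′ end, with tallest heights of 4, 5 and 6 units and no locus in all 3 libraries. Kit, the stem cell factor receptor, had peaks of 12 units at chr5:75575468-75575489 in replicate 1 and 7 units at chr5:75575416-75575457 in replicate 3. Both were at the 5′ end and did not overlap, and replicate 2 had no end peak in Kit. A further 3 Kit peaks of 3 units lay at the 3′ end in replicate 1 alone. Gata2, a transcription factor of mast cells, had 4 units at its 3′ end in replicates 1 and 2 and none in replicate 3, beside 25 deep peaks. The interleukin-33 receptor Il1rl1, named after its values were seen, had 3 units in each library 2872 to 2927 nt from its 3′ end.

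Several genes of interest had no end peak. No peak of any library lay in the span of Tet2 itself or of Adar, the enzyme that edits adenosine in RNA. Socs3, an inhibitor of cytokine signalling, has a span of 4258 nt, below the length the rule asks for, and held 3 peaks. Fcer1a, the alpha chain of FcεRI, spans 5964 nt and held none. Cpa3, the mast cell carboxypeptidase, held 3 peaks, all where its span overlaps another, so that the rule left them out.

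Among all 1168 genes with an end peak, 708 had one in 1 library only, and signalling genes are to be read beside that number. Of 29 genes of FcεRI and Kit signalling 8 had one, none of them in every library: Prkcd, a protein kinase C, had a single-base peak of 11 units in replicate 1, and Gab2, an adaptor, 6 units in replicate 2. Prkcb (5 units, replicate 1) and Pik3cd (4 units, replicate 2) likewise rested on 1 library. Of 26 JAK-STAT and SOCS genes 8 had one, 2 of them in every library. Socs4, an inhibitor of cytokine signalling, had the tallest, with 9, 11 and 9 units at chr14:47277159-47277210. Il4ra, the interleukin-4 receptor, had a 5′ locus of 3, 7 and 4 units in all libraries. Tyk2, a JAK kinase, had 5, 6 and 0 units. Of 35 MAP kinase and phosphatase genes, 10 had an end peak and none in every library, among them Mapk14 (5, 6 and 0 units) and Mapkapk2, its target kinase (6, 0 and 4 units). Cytokine and immediate-early genes are mostly short, and of the 9 long enough for the rule 2 had an end peak, Tgfb1 (3, 5 and 0 units) and Nr4a3 (3 units in replicate 1).

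Of 29 haematopoietic transcription factor genes 6 had an end peak, 3 at the 5′ end and 2 at the 3′ end, and of 49 chromatin genes 17 had one, 10 at the 5′ end and 5 at the 3′ end. Runx1, a factor of blood cell development, had 7 end peaks, all at the 3′ end, 4167 to 4516 nt from it. Its recurrent locus stood at 6, 5 and 8 units, and its tallest peak was one of 13 units in replicate 2. Etv6, an ETS family repressor, had a 5′ locus of 7, 4 and 4 units at chr6:134035774-134035822, 96 nt from its start. Kmt2e, a relative of histone methyltransferases, had a recurrent locus of 5, 3 and 3 units, and Nsd1, a histone H3 methyltransferase, one of 4, 7 and 4 units, both in genes of unknown strand here. Kdm5c, a histone demethylase encoded on the X chromosome, had 3, 4 and 7 units at its 5′ end. Gse1, a corepressor-associated protein, had 5 end peaks at its 3′ end and 1 at its 5′ end, and none in replicate 3. Of the DNA methylation genes, Dnmt1, the maintenance methyltransferase, had 3, 0 and 4 units at its 3′ end and Tet3, a paralogue of Tet2, 3 units at its 5′ end in replicate 2. Of the RNA editing and methylation genes, Wtap, a subunit of the m6A methyltransferase, had 0, 3 and 3 units 13 nt from its start, and Alkbh5, an m6A demethylase, 5 units in replicate 3.

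Of 38 splicing factor and hnRNP genes 8 had an end peak, 7 at the 5′ end and 1 at the 3′ end, 5 of them in every library. Snrnp70 counted at both ends. After Snrnp70 came Ddx17, an RNA helicase (10, 5 and 7 units), Hnrnpd (7, 8 and 4 units) and Srsf4 (5, 5 and 4 units), each with a recurrent locus at the 5′ end. Of 47 ribonucleoprotein granule and mRNA decay genes 13 had one, 8 at the 5′ end and 2 at the 3′ end. The tallest was in Zc3h7b, a zinc finger protein, with 3, 11 and 8 units at chr15:81745306-81745346. Its peaks of replicates 2 and 3 each overlapped that of replicate 1 but not each other. Tnrc6c, a partner of Argonaute proteins, had 5, 0 and 7 units at its 3′ end. Among translation factors Gspt1, a release factor, was the only gene of the list with an end peak in every library (3 units in each), and its peaks did not form a locus in all 3. Eif4g2 (0, 5 and 3 units) and Eif3h (0, 4 and 3 units) had peaks in replicates 2 and 3.

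End peaks were found in 10 of 30 cytoskeletal genes, 4 of 13 glycolysis genes, 6 of 22 chaperone genes and 7 of 38 Rab and Arf trafficking genes. Vcl, vinculin, had a 5′ locus of 7, 3 and 3 units at chr14:20929596-20929688. Slc2a1, the glucose transporter, had 4, 3 and 3 units at its 5′ end, of which replicates 1 and 2 overlapped, and Pkm, pyruvate kinase, 4 units at its 3′ end in replicate 3. Canx, the chaperone calnexin, had 4, 8 and 9 units at chr11:50325495-50325554, and Cct4, a chaperonin subunit, 7, 5 and 3 units. Rab14, a GTPase of endosomal traffic, had 11, 5 and 8 units at chr2:35200841-35200875, and Rab8b 5, 3 and 3 units. Each of these loci except those of Slc2a1 and Pkm was present in all 3 libraries. Other genes of these lists were ranked as high by mean tallest end peak. Of them, Rab44 had a locus in all 3 libraries (6, 3 and 3 units). No such locus was found in Hspa4 (tallest end peaks 8, 3 and 3 units), Diaph1 (4, 5 and 3) or Plec (6, 5 and 0). The same held for Rab2a (0, 5 and 3), Dnaja2 (0, 0 and 5), Gpi1 (0, 3 and 0) and Slc2a3 (0, 0 and 3).

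The rule's limits are of position and length. Over all libraries together, the 153 end peaks at 4% to 5% of the span from an end had a median height of 4 units (range 3 to 14). Of these, 29.7% were overlapped in another library. The 151 peaks just outside, at 5% to 6%, had a median of 4 units (range 3 to 20), and 38.4% were overlapped. The nearest end peaks inside were those of Ankrd27 (3 units) and Pgap6 (4 units), both at 4.989% of the span, and the nearest outside were those of Krba1 (5 units, at 5.001%) and Trio (4 units, at 5.017%). At the length limit, Blcap, whose span is 10000 nt, gave an end peak of 5 units, and Mafg, at 9839 nt, had peaks of 4 and 3 units that the rule left out.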

How the data were processed

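Tet2 CLIP peaks of 3 mast cell libraries were used. The values are a signal: the authors deposited a separate peak list for each library, with a position and a normalized height per peak. The names cutadapt 1.9, STAR 2.4.0i and the build mm10 come from the submitters' processing notes. A peak was called where valleys lie on both sides, per the labels' protocols; the caller's version and settings were not given in the sources used here. Heights sum to 1 in each library and are whole multiples of a step, with 100% of values no further than 0.05 steps from a whole number, so they were expressed in steps, called height units. That a unit is 1 read is stated nowhere, and no count model was used. Starts were read as 0-based and are printed 1-based.

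Gene spans came from RefSeq GRCm38.p6, strand and promoter sequence from a RefSeq promoter table that holds 11080 of the 13962 longer coding genes and none on chromosome 18. Peaks of different libraries were shared when they overlapped by at least 1 nt. Values were computed within each library, with exceptions that pooled all libraries and carry no test. These were values by length class, widths by height, overlap by bin of the span, values at the limits of the rule, and counts of loci, genes and motifs. Differences given with a p-value were tested by an exact two-sided sign-flip permutation test over the 3 libraries. The members, gene lists and tests were chosen with earlier results of these data known. Genes named were the 10 with the highest mean tallest end peak, the 5 with the most end peaks, 8 per end with a locus in all libraries, up to 4 per list, those with recurrent loci at both ends, and Tet2, Kit, Gata2, Socs3, Adar, Fcer1a and Cpa3; others are said to be chosen after their values were seen, and 1 gene of the first group is not reported here. Genes of the sequence lines were chosen by recurrence and summed height. Scripts (Python 3.11.15, pandas 2.3.3, scipy 1.17.1) were tested on simulated data. Alternatives changed the width of the end zone, the span minimum, the height and width minimum, overlapping gene types, the overlap rule, the reading of starts, and left out each library.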

Additional observations from a re-analysis of the deposited data

How the results depend on the processing

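Over 18 settings, 139 differences between classes of peaks were recomputed and 15 of them changed direction. The 3′ minus 5′ share of end peaks stayed below 0 (-82.8 to -42.1 points), as did the mean 3′ minus 5′ overlap (-20.1 to -3.56 points). The mean end minus deep overlap stayed above 0 (0.855 to 8.14 points), and so did the excess of end peaks of 5 units or more (2.80 to 5.34 points).

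The small differences changed direction. The width of end minus deep peaks, 1 nt, became -0.333 nt with 2.5% zones, -1.33 nt with zones of 1000 nt, -1.17 nt with 500 nt, -0.167 nt with spans from 20000 nt and 0 where other gene types may overlap. The excess at 10 units or more (0.107 points) became -0.276 with 10% zones, -0.624 and -0.879 with spans from 20000 and 50000 nt, -1.88 with peaks of 5 units or more, and ran from -0.388 to 0.717 when 1 library was left out. With spans from 50000 nt and with peaks of 5 units or more, the mean log2 height of end minus deep peaks was -0.00519 and -0.0523, the median 0.138 and 0.148, and the mean of 3′ minus 5′ peaks 0.00911 and 0.118. Width of 3′ minus 5′ peaks was -0.667 nt with peaks of 5 units or more. The cause of these changes was not tested.

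Counts followed the size of the zone. End peaks were 19.2%, 32.5%, 20.1% and 14.2% of all peaks with zones of 2.5%, 10%, 1000 nt and 500 nt, 26.9%, 20.5% and 12.0% with spans from 5000, 20000 and 50000 nt, and 26.5% where other gene types may overlap. Their median distances were 315, 646, 324 and 244 nt, then 377, 469 and 671 nt, and 378 nt with peaks of 5 units or more. Loci, loci in all libraries, genes and genes in every library numbered 805, 109, 719 and 126 with zones of 500 nt, 704, 77, 544 and 91 with spans from 50000 nt, and 512, 75, 442 and 81 with peaks of 5 units or more. Loci in all libraries numbered 107 with a reciprocal overlap of 50%, and 234 to 264 when 1 library was left out and a locus had to be in the other two.

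Gene lists lost genes with narrower zones, longer spans and taller peaks. Genes with an end peak were 3 transcription factors, 11 chromatin, 5 mast cell, 1 DNA methylation, 1 RNA editing and 1 cytokine gene with 2.5% zones, and 13 splicing genes with 10% zones. With zones of 1000 nt they were 8 chromatin, 8 ribonucleoprotein granule, 2 transcription factor and 1 DNA methylation gene, and with 500 nt 6, 6, 2 and 0, beside 5 mast cell, 1 RNA editing and 0 cytokine genes. Spans from 5000 nt gave 4 cytokine genes, and spans from 20000 nt 4 splicing, 3 chaperone and 1 cytokine gene. Spans from 50000 nt gave 10 chromatin, 8 ribonucleoprotein granule, 6 MAP kinase, 5 FcεRI and Kit, 3 mast cell, 3 translation, 2 Rab and Arf, 1 each of JAK-STAT, splicing, chaperone and glycolysis, and 0 RNA editing and cytokine genes. Peaks of 5 units or more gave 8 chromatin genes, 5 each of mast cell, cytoskeleton and MAP kinase, 4 of Rab and Arf, 3 each of FcεRI and Kit, JAK-STAT, transcription factor and ribonucleoprotein granule, 1 each of translation, RNA editing and cytokine, and 0 of DNA methylation and glycolysis. Leaving out 1 library gave 4 to 7 FcεRI and Kit genes, 5 to 8 JAK-STAT genes, 2 to 4 glycolysis genes, and 1 to 2 genes each of the DNA methylation, RNA editing and cytokine lists.

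Leaving out peaks below 5 units also removed them as overlapping peaks of the other libraries. The overlap differences were then within the spread between libraries (0.855 ± 2.51 and -3.56 ± 5.11 points, SD). There is 1 group, so no groups could be paired, and all tested differences were taken within each library. Depth is unknown, so absence of a peak is no sign that an RNA was not recovered.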
